A study of Mus musculus with 30 samples.

Results

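The Hox genes of clusters A, B, C and D and the Cdx genes Cdx1, Cdx2 and Cdx4 were followed across mouse embryonic stem (ES) cells, induced pluripotent stem (iPS) cells, the endoderm made from both, and sorted cells of the early embryo. Members were all genes with a probe set naming 1 gene whose symbol is Hox with a cluster letter and a number, or Cdx1, Cdx2 or Cdx4. This gave 40 of the 19938 genes measured, each with 1 probe set: 10 of cluster A, 9 of cluster B, 9 of cluster C, 9 of cluster D and 3 Cdx genes. Hoxb8 was read only by a probe set that it shares with Hoxb7.

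RNA from 30 samples was hybridised to Affymetrix Mouse Gene 1.0 ST arrays, in 10 groups of 3 biological replicates. The cultured lines were ES cells and 2 iPS lines, ST5 and ST8, each from 1 clone. They had the strain C57BL/6x129SvJae and were taken undifferentiated at day 0, sorted as Sox2bright, or at day 5 of differentiation into definitive endoderm, sorted as ckit+/Sox2dim. Those 18 arrays were labelled without amplification. A further 12 arrays carried RNA amplified with NuGEN Pico chemistry, from ES cells at day 0 and day 5 with the same gates and from E8.25 embryos of Swiss webster mice. The embryos gave foregut endoderm, sorted as ENDM1+/Epcam+/SSlo (low side scatter), and a comparison population of Epcam+ cells that were negative for ENDM1, here called ENDM1-negative cells. No genetic change or added agent is named for any group.

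Hox genes encode homeodomain transcription factors that give cells their position along the head-to-tail axis. Genes at the 3′ end of a cluster, with low paralogue numbers, act in the hindbrain and the anterior trunk, and genes at the 5′ end, with high numbers, act towards the tail. Cdx factors are homeodomain proteins of the tail bud and hindgut that activate central Hox genes, and Wnt, Fgf and retinoic acid signals act upstream of both families. The foregut is the anterior part of the gut tube, which gives rise to the lung, liver, pancreas and thyroid.

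Promoter sequence is shown for 4 members. Of these, 2 are Cdx genes called higher in both embryo groups than in ES cells at day 5. The other 2 are Hox genes that carry the letters of motifs linked to Cdx and to Hox cofactors. The RefSeq promoter table on GRCm38.p6 matched 23 of the 40 members, with 25 windows, and each window below runs over the 250 bases before the start site, 5′ to 3′ on the strand of the gene. Cdx4 lies at chrX:103321148-103321397 on the plus strand and Cdx2 at chr5:147307250-147307499 on the minus strand. Capitals mark the octamer ATGCAAAT, the letters that Oct factors of pluripotent cells bind, which was searched after these sequences had been seen.
Cdx4: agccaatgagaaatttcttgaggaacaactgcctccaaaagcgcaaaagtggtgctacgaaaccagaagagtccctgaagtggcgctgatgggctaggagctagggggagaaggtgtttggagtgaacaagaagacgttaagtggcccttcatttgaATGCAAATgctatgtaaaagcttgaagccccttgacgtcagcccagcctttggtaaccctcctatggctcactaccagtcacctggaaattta
Cdx2: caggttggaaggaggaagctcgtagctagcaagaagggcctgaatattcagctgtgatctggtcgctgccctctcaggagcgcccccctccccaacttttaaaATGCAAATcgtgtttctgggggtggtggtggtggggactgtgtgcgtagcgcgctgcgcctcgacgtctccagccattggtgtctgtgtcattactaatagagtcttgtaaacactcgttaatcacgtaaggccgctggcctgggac
Hoxa7, a central gene of cluster A, lies at chr6:52218574-52218823 on the minus strand, and capitals mark both copies of TTTATG, the letters of a Cdx site. Hoxb1, a gene of hindbrain segment identity, lies at chr11:96365508-96365757 on the plus strand, and capitals mark TGATNNAT, the letters bound by a Pbx protein together with a Hox protein.
Hoxa7: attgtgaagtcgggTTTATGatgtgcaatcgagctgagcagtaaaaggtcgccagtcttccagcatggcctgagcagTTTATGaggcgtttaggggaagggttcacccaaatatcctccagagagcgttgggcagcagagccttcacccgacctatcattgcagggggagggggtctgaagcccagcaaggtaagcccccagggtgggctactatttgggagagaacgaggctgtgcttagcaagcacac
Hoxb1: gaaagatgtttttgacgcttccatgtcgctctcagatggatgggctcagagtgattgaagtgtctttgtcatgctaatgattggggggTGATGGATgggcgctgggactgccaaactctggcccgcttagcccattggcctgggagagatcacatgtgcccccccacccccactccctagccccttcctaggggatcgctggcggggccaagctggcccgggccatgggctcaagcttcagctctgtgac

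On both strands and with overlaps between motifs allowed, ATGCAAAT stood in the windows of 2 of the 23 members, Cdx2 and Cdx4, and in 1.60% of all 32851 windows of the same length. TTTATG stood in those of 4 members, Hoxa7, Hoxd3, Hoxd4 and Hoxd11, and in 10.8% of all windows. TGATNNAT stood in those of Hoxa2, Hoxb1 and Hoxd11 and in 7.68% of all windows. A pair of direct repeats spaced as in the retinoic acid receptor site of the DR5 class stood in the window of 0 members and in 0.0883% of all windows. These matches describe letters, not bound sites.

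Values are log2 levels after RMA, a method that corrects, normalises and summarises the probes of a gene. The medians of the 30 arrays lay between 5.50 and 5.74. Differences are in log2 units ± the standard error (SE) of limma fits with 3 arrays per group, made separately for each labelling, and a gene is called at an adjusted p under 0.05 over all 19938 genes. The p-values measure the spread between these replicates. Single day 5 arrays stood apart from their groups. The correlation over genes with the other arrays of the group was 0.989 for replicate 1 of ES cells, against 0.997 between the other 2, 0.988 for replicate 1 of amplified ES cells, against 0.995, and 0.983 to 0.984 for replicate 2 of ST8, against 0.997. The mean level of the definitive endoderm list on the 3 arrays of each group was 8.35, 8.38 and 9.40 in ES cells, 7.88, 7.92 and 8.66 in amplified ES cells and 8.49, 8.51 and 9.53 in ST8, in rising order. Without replicate 1 of amplified ES cells at day 5, 22 of 40 members were higher in foregut and 27 in ENDM1-negative cells than in those ES cells, in place of 23 and 28. Replicate 1 of ES cells at day 5 deviated from its group in the same way on both labellings (correlation 0.65 over genes). Whether the 2 labellings used the same RNA is not given in the sources used here, so the amplified ES arrays are not counted as an independent repeat of the unamplified ones. In a bulk sample, fewer cells of a type and less RNA per cell cannot be told apart. Markers of definitive endoderm rose from day 0 to day 5 in 10 of 12 genes for ES cells and in 11 for each clone, and 10 of 10 pluripotency markers fell in each line.

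The first question was whether Hox and Cdx levels in the embryo differed from those of endoderm made from ES cells. Of the 40 members, 23 were higher in foregut cells than in ES cells at day 5 and 0 were lower, with 14.7% of all genes called higher and 9.42% lower in that comparison. In ENDM1-negative cells 28 members were higher than in ES cells at day 5 and 0 were lower, against 16.5% and 9.76% of all genes. Cdx4 had the largest measured difference in both. Cdx2, Hoxd9, Hoxc8, Hoxa5, Hoxb5 and Hoxb6 differed by 0.95 to 1.82 log2 units. Both comparisons use the same 3 ES arrays, so the values stand side by side and their likeness is no separate result.

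The median difference over all 40 members was 0.43 in foregut and 0.52 in ENDM1-negative cells, beside 0.08 and 0.06 over all genes. All 40 member means lay above those of ES cells at day 5 in both embryo groups. In foregut Hoxb13 and Hoxc5 turned below 0 when arrays were shifted to a common median, and Hoxa11 did so too after a further quantile normalisation. The arrays of the groups did not overlap for 31 members in foregut, where 26.5% of all genes were likewise higher without overlap, and for 32 in ENDM1-negative cells, where 25.5% were. At least 2-fold differences were called for 5 members in foregut and 10 in ENDM1-negative cells, against 3.06% and 3.28% of all genes. Many levels were low. Of the 23 members higher in foregut, 10 lay above the median gene in foregut and 3 did so in ES cells at day 5. Of the 28 higher in ENDM1-negative cells, 17 lay above the median gene there and 5 did so in ES cells at day 5. The embryos also differed from the ES cells in strain, in RNA kit (RNeasy Micro against miRNeasy Mini), in sort gates and in coming from a living embryo, and none of these can be told apart from the group here.

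Cdx4, a Cdx factor of the tail bud and posterior embryo, read 3.38, 3.10 and 3.22 on the 3 arrays of ES cells at day 5. It read 6.12, 6.43 and 6.13 in foregut and 6.31, 6.24 and 6.73 in ENDM1-negative cells. All 6 embryo arrays were far above all ES arrays, and the embryo groups overlapped each other. The difference to ES cells at day 5 was 3.0 ± 0.13 in foregut (adjusted p = 2.59e-08, limma) and 3.20 ± 0.13 in ENDM1-negative cells (adjusted p = 1.54e-08). Undifferentiated ES cells on the same labelling read 3.45, 3.39 and 3.44, also below every embryo array. The deposited values carry no detection call, so whether Cdx4 was above background in ES cells is not known and no fold is given.

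Cdx2, which specifies the trophectoderm and later the hindgut, read 5.09, 4.82 and 5.17 in ES cells at day 5. Its foregut values were 6.03, 6.15 and 6.32, and its ENDM1-negative values were 6.56, 6.56 and 7.08. The 3 groups formed 3 levels without overlap, with ENDM1-negative cells at the top. Foregut exceeded ES cells at day 5 by 1.14 ± 0.15 (adjusted p = 0.000192, limma) and ENDM1-negative cells exceeded them by 1.70 ± 0.15 (adjusted p = 6.47e-06).

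Cdx1, a Cdx gene of the primitive streak, neural plate and gut, read 5.99, 5.98 and 6.01 in ES cells at day 5. It read 6.55, 6.22 and 6.22 in foregut and 6.80, 6.22 and 6.34 in ENDM1-negative cells. Replicate 1 was the highest in both embryo groups, and no embryo array fell to the ES level. Foregut differed by 0.33 ± 0.14 and did not pass the test (adjusted p = 0.0939, limma), while ENDM1-negative cells were higher by 0.46 ± 0.14 (adjusted p = 0.0245). That call was lost without ENDM1-negative replicate 1 (difference 0.29, adjusted p = 0.0921), without replicate 2 of the amplified ES cells at day 5 (adjusted p = 0.0611) and without replicate 3 (adjusted p = 0.0558).

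**Figure D1:**
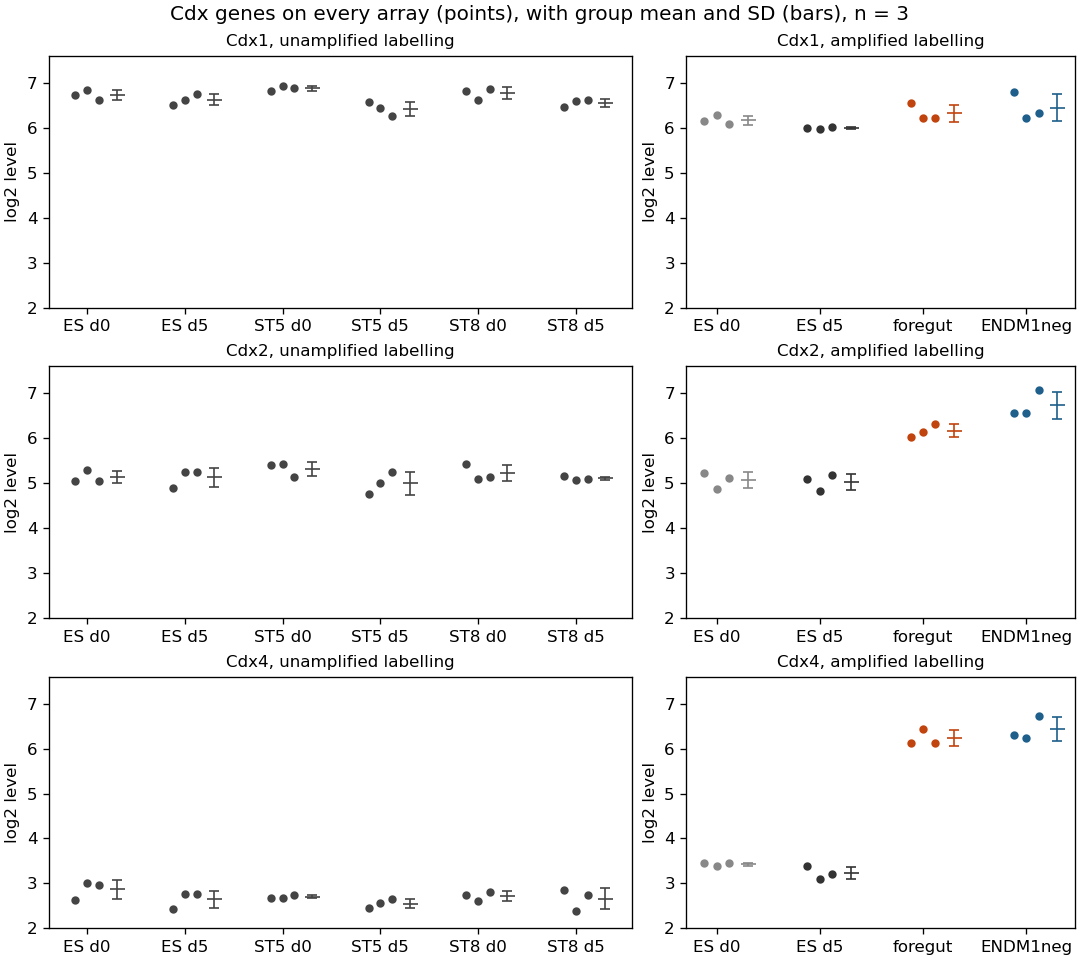
Log2 level of Cdx1, Cdx2 and Cdx4 on each array, by group, with unamplified and amplified labelling in separate panels; points are arrays and bars are the mean ± SD of 3. Cdx4 and Cdx2 stand apart in the embryo groups, and levels compare only within a panel.

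Among the anterior genes, paralogues 1 to 4, 8 of 11 were higher in foregut and 11 of 11 in ENDM1-negative cells than in ES cells at day 5, with median differences of 0.40 and 0.65. Hoxb2, which acts in hindbrain segments and the facial nerve, read 5.20, 5.06 and 5.02 in ES cells at day 5, 5.64, 5.64 and 5.91 in foregut and 6.55, 6.15 and 6.45 in ENDM1-negative cells. The groups did not overlap, and their order was ES cells, foregut, ENDM1-negative cells. Hoxb2 differed from ES cells by 0.64 ± 0.11 in foregut (adjusted p = 0.00118, limma) and by 1.29 ± 0.11 in ENDM1-negative cells (adjusted p = 4.71e-06). Hoxb4 had differences of 0.83 in foregut and 1.25 in ENDM1-negative cells, and Hoxa2, the anterior-most Hox gene of the hindbrain, 0.66 and 1.20. Hoxb1 had 0.51 and 0.65, Hoxd1 0.55 and 0.81, Hoxa3 0.40 and 0.52, Hoxa4 0.40 and 0.51, and Hoxd3 0.36 and 0.38, all called in both. Hoxb3, Hoxc4 and Hoxd4 had 0.12, 0.38 and 0.37 in foregut, which did not pass, and 0.24, 0.97 and 0.52 in ENDM1-negative cells, which did. The foregut calls of Hoxa4 and Hoxd3 and the ENDM1-negative calls of Hoxb3 and Hoxd4 were each lost when a single array was left out: replicate 1 or 3 of foregut for Hoxa4 (adjusted p = 0.0889 and 0.112) and for Hoxd3 (0.0526 and 0.0508), ENDM1-negative replicate 1 for Hoxd4 (0.0604), and ENDM1-negative replicate 2 or 3 for Hoxb3 (0.127 and 0.125). Hoxa4 was lost too without any of the 3 arrays of ES cells at day 5 (adjusted p = 0.0548, 0.0504 and 0.0686 for replicates 1 to 3) and Hoxb3 without replicate 2 or 3 of them (0.136 and 0.117).

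Of the central genes, paralogues 5 to 8, which pattern the neck and thorax, 7 of 10 were higher in foregut and 8 of 10 in ENDM1-negative cells, with medians of 0.59 and 0.79. Hoxa5, which is needed for lung and cervical development, read 4.15, 4.35 and 4.09 in ES cells at day 5, 5.11, 4.77 and 5.55 in foregut and 5.87, 5.68 and 6.32 in ENDM1-negative cells. Its foregut arrays spread the most and still lay between those of the other groups. It differed from ES cells by 0.95 ± 0.19 in foregut (adjusted p = 0.00292, limma) and by 1.76 ± 0.19 in ENDM1-negative cells (adjusted p = 2.66e-05).

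Hoxb5, which acts in enteric neural crest and the shoulder region, read 5.22, 4.89 and 5.09 in ES cells at day 5, 5.99, 6.00 and 6.17 in foregut and 6.42, 6.71 and 6.47 in ENDM1-negative cells. Hoxc8, a thoracic patterning gene, read 4.58, 4.19 and 4.34, then 5.43, 5.55 and 5.72, then 5.93, 6.12 and 6.52 in the same order of groups. Neither gene overlapped between any of these groups, and both were highest in ENDM1-negative cells. The differences to ES cells were 0.98 ± 0.12 and 1.47 ± 0.12 for Hoxb5 (adjusted p = 0.000121 and 4.02e-06, limma). For Hoxc8 they were 1.20 ± 0.15 and 1.82 ± 0.15 (adjusted p = 0.000105 and 2.91e-06).

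Hoxb6, a central gene of lateral plate and trunk mesoderm, read 4.51, 4.84 and 4.76 in ES cells at day 5, 5.76, 5.53 and 6.01 in foregut and 5.61, 5.95 and 5.51 in ENDM1-negative cells. The embryo groups overlapped, and both lay above ES cells. Hoxb6 differed from them by 1.06 ± 0.14 in foregut (adjusted p = 0.000208, limma) and 0.99 ± 0.14 in ENDM1-negative cells (adjusted p = 0.000259). Hoxa7 had differences of 0.59 and 0.72, Hoxb7 0.45 and 0.38, and Hoxc6 0.59 and 0.83 in foregut and ENDM1-negative cells, all called. Hoxc6 in foregut was lost without foregut replicate 3 (adjusted p = 0.0718) or replicate 2 of ES cells at day 5 (0.0679), and Hoxb7 in ENDM1-negative cells without replicate 3 of ES cells at day 5 (0.073). Hoxd8 had 0.42 in foregut, which did not pass, and 0.75 in ENDM1-negative cells, which did. Hoxa6 and Hoxc5 passed in neither, at 0.12 and 0.02 in foregut and 0.25 and 0.20 in ENDM1-negative cells.

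Of the posterior genes, paralogues 9 to 13, which pattern the lower trunk, limbs, tail and urogenital tract, 6 of 16 were higher in foregut and 6 of 16 in ENDM1-negative cells, with medians of 0.30 and 0.31. Hoxd9, a gene of the lumbar region and limb, read 5.03, 4.61 and 4.74 in ES cells at day 5, 6.17, 6.09 and 6.18 in foregut and 6.42, 6.39 and 6.55 in ENDM1-negative cells. All embryo arrays were above all ES arrays, and ENDM1-negative arrays were above those of foregut. The differences to ES cells were 1.35 ± 0.13 (adjusted p = 1.24e-05, limma) and 1.66 ± 0.13 (adjusted p = 2.02e-06). Hoxb9, which patterns thoracic segments, read 5.76, 5.70 and 5.52 in ES cells at day 5, 6.65, 6.18 and 6.79 in foregut and 6.96, 6.71 and 7.17 in ENDM1-negative cells. The embryo groups overlapped there, and the differences were 0.88 ± 0.15 (adjusted p = 0.00105, limma) and 1.29 ± 0.15 (adjusted p = 4.95e-05). Hoxa9 and Hoxc9 had 0.54 and 0.59 in foregut and 0.77 and 0.85 in ENDM1-negative cells, and Hoxa10 had 0.82 and 0.52, all called. The foregut call of Hoxa9 was lost without foregut replicate 1 or 3 (adjusted p = 0.0961 and 0.0583) or without replicate 2 or 3 of ES cells at day 5 (0.0579 and 0.0842). Hoxc11 passed in ENDM1-negative cells at 0.36, a call that was lost without ENDM1-negative replicate 1 or 2 (adjusted p = 0.151 and 0.117) or any of the arrays of ES cells at day 5 (0.0774, 0.0758 and 0.0751).

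Paralogues 1 to 9 were called higher in 19 of 25 genes in foregut and 23 of 25 in ENDM1-negative cells, with medians of 0.55 and 0.81, and paralogues 10 to 13 in 2 of 12 in each, with medians of 0.22 and 0.25. That border was chosen after the values had been seen and was not tested. Hoxa10 and Hoxd13 were called among the 12 in foregut, and Hoxa10 and Hoxc11 in ENDM1-negative cells. The others (Hoxa11, Hoxa13, Hoxb13, Hoxc10, Hoxc12, Hoxc13, Hoxd10, Hoxd11 and Hoxd12) passed in neither, with differences between 0.04 for Hoxb13 and 0.33 for Hoxd12 in foregut. By cluster, 7 of 10 genes of cluster A were higher in foregut and 7 in ENDM1-negative cells, 7 and 8 of 9 in cluster B, 3 and 5 of 9 in cluster C and 4 and 5 of 9 in cluster D. The cluster medians in foregut were 0.47, 0.64, 0.29 and 0.37, and in ENDM1-negative cells 0.52, 0.99, 0.36 and 0.47. The 17 members that did not pass in foregut had differences from 0.02 to 0.42 and the 12 in ENDM1-negative cells from 0.06 to 0.47, with SEs of 0.08 to 0.25 over the members. Of the 12 genes of paralogues 10 to 13, only Hoxa10, Hoxc11 and Hoxd13 averaged higher in foregut than in undifferentiated amplified ES cells. In ENDM1-negative cells only Hoxa10, Hoxa11, Hoxc10 and Hoxc11 did so, with Hoxd10 about equal. Hoxc12 averaged 5.099 in those ES cells, 4.467 in foregut and 4.461 in ENDM1-negative cells. From day 0 to day 5 these 12 genes had a median change of -0.296 in amplified ES cells. Embryo groups were not tested against day 0.

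**Figure D2:**
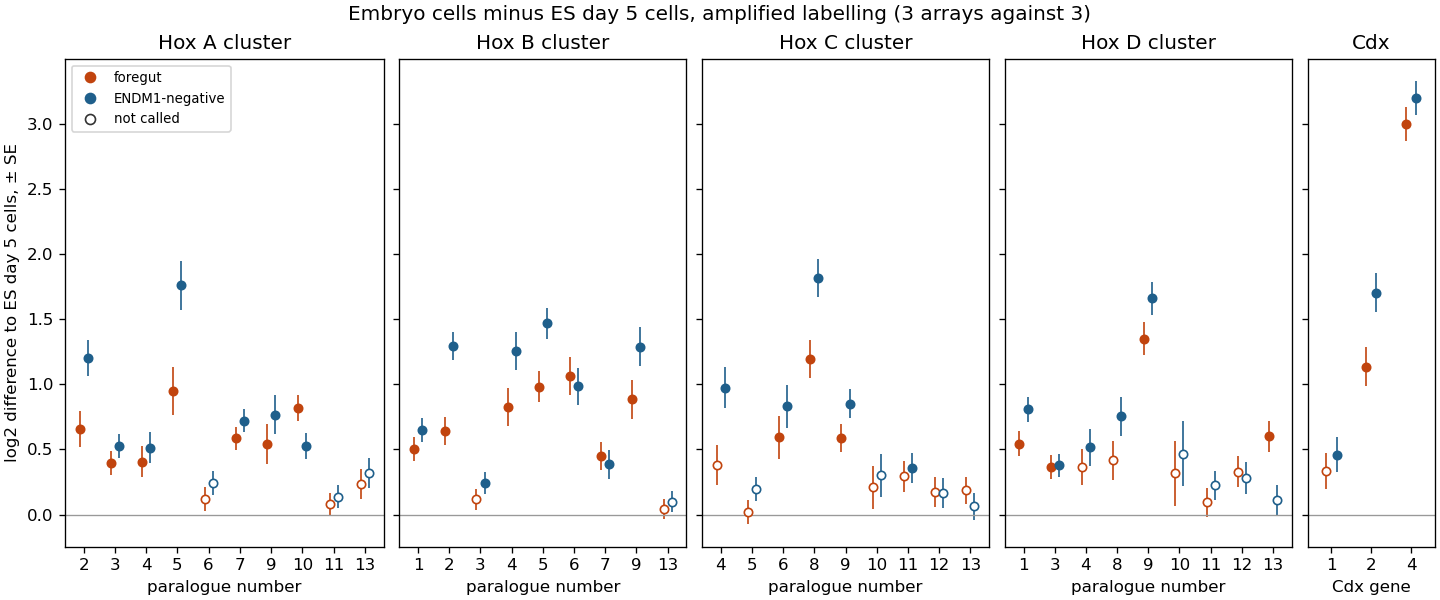
Log2 difference ± SE of foregut (orange) and ENDM1-negative cells (blue) to ES cells at day 5, members ordered by cluster and paralogue number; open symbols did not pass the test. All 40 means are above 0, of which Hoxa11, Hoxb13 and Hoxc5 in foregut turned sign under another scaling, and Cdx4 is at 3.0 and 3.20.

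**Figure D3:**
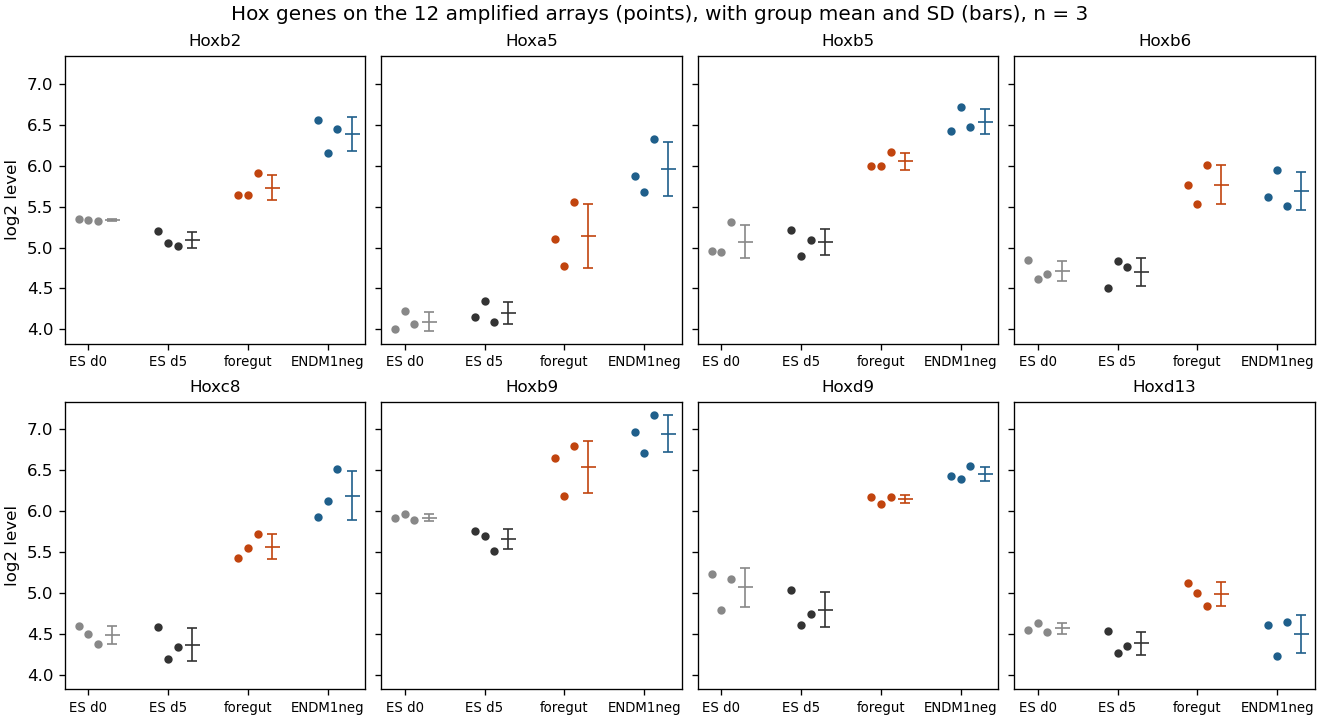
Log2 level of 8 Hox genes on each of the 12 amplified arrays; points are arrays and bars are the mean ± SD of 3 per group. Hoxa5, Hoxb2 and Hoxc8 step up from ES cells to foregut to ENDM1-negative cells, while Hoxd13 is highest in foregut.

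Markers of other cell types moved with the same groups. Visceral endoderm markers were higher in foregut than in ES cells at day 5 in 8 of 9 genes, and the array means of that list were 7.63 to 8.96 against 5.98 to 6.52. In ENDM1-negative cells 8 of 11 trophoblast markers, 8 of 11 surface ectoderm markers and 7 of 7 endothelial markers were higher than in ES cells at day 5. Markers of the hindgut and posterior endoderm, a list that holds the Cdx genes and Hoxc9, were higher in 4 of 6 genes in both embryo groups. In ENDM1-negative cells those 4 were Cdx1, Cdx2, Cdx4 and Hoxc9, and in foregut they included Cdx2, Cdx4 and Hoxc9. That count therefore repeats the members and is no separate result. Blood markers were higher in 3 of 6 genes in foregut, with array means of 6.30 to 6.64 against 4.95 to 5.24, and in 4 of 6 with 1 lower in ENDM1-negative cells. Neural plate markers were higher in 6 of 13 genes and presomitic and paraxial mesoderm markers in 4 of 11 in ENDM1-negative cells, with 1 and 0 lower. The trophoblast list, which itself holds Cdx2, had array means of 6.51 to 7.26 in ENDM1-negative cells and 5.53 to 5.75 in ES cells at day 5, and the endothelial list 6.08 to 6.65 and 4.53 to 4.62. Of all genes, 14.7% were higher in foregut and 16.5% in ENDM1-negative cells than in ES cells at day 5. The part of cells of the listed types in the Hox and Cdx differences was not tested.

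Foregut and ENDM1-negative cells came from the same stage, strain and RNA kit, and their comparison asked how the members differ within the embryo. Foregut was lower for 7 of 40 members and higher for 1, against 4.43% of all genes lower and 3.71% higher. The 7 were Hoxa5, Hoxb2, Hoxc8, Hoxc4, Cdx2, Hoxa2 and Hoxb5, genes of paralogue groups 2 to 8 and 1 Cdx gene, and the 1 was Hoxd13. The median over the members was -0.14, beside 0.01 over all genes, and 33 of 40 means were lower in foregut, or 34 with arrays on a common median or quantile normalised. Arrays did not overlap for 10 members in the lower direction and 2 in the higher, where 15.1% and 13.1% of all genes did not. At an unadjusted p under 0.05, 15 members differed, against 22.5% of all genes.

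The array values given above show the largest of these differences. For Hoxa5 the lowest ENDM1-negative array was at 5.68 and the highest foregut array at 5.55, and the difference was -0.81 ± 0.19 (adjusted p = 0.018, limma). Hoxb2 differed by -0.65 ± 0.11 (adjusted p = 0.00288) and Hoxc8 by -0.62 ± 0.15 (adjusted p = 0.02). Cdx2 differed by -0.57 ± 0.15 (adjusted p = 0.0351). Cdx1 and Cdx4 did not pass, at -0.13 ± 0.14 (adjusted p = 0.651) and -0.20 ± 0.13 (adjusted p = 0.404). Hoxc4, Hoxa2 and Hoxb5 differed by -0.59, -0.54 and -0.48 (adjusted p = 0.0347, 0.0299 and 0.0282, limma).

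Hoxd13, the 5′-most gene of cluster D, known for digits and the genital tubercle, was singled out because it alone was called in the other direction. It read 5.13, 5.00 and 4.84 in foregut, 4.61, 4.23 and 4.65 in ENDM1-negative cells and 4.54, 4.26 and 4.36 in ES cells at day 5. Foregut lay above both other groups, which overlapped. It exceeded ENDM1-negative cells by 0.49 ± 0.12 (adjusted p = 0.0241, limma) and ES cells by 0.60 ± 0.12 (adjusted p = 0.00313), while ENDM1-negative cells differed from ES cells by 0.11 (adjusted p = 0.558). Undifferentiated ES cells of the same labelling read 4.54, 4.64 and 4.52. All these levels were low, with the mean of Hoxd13 at percentile 27.7 of all genes in foregut, 19.5 in ENDM1-negative cells and 18.5 in ES cells at day 5.

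Most of the 8 calls between the embryo populations depended on single arrays. Without foregut replicate 1, without foregut replicate 2 or without ENDM1-negative replicate 3, the count fell from 8 to 1, 1 and 2. Calls over all genes fell from 1623 to 985, 1136 and 1135. Hoxb2 kept its call without any single array. Hoxa5 had adjusted p = 0.0642, 0.0684 and 0.0689 without those 3 arrays, Hoxc8 0.0858, 0.0598 and 0.0678, and Cdx2 0.135, 0.0883 and 0.121. Hoxd13 was lost without foregut replicate 1 (0.103), foregut replicate 2 (0.0671) or ENDM1-negative replicate 2 (0.0812), and with only the 2 embryo groups in the fit (0.0512).

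Several marker lists moved with this comparison. Definitive endoderm markers were higher in foregut in 9 of 12 genes (array means 8.26 to 8.40 against 6.92 to 7.14), foregut markers in 5 of 11 and visceral endoderm markers in 8 of 9 (7.63 to 8.96 against 5.78 to 6.47). Trophoblast markers were lower in foregut in 7 of 11 genes, surface ectoderm markers in 7 of 11 with 2 higher, endothelial markers in 6 of 7 and neural plate markers in 3 of 13. How far cells of those types account for the lower Hox and Cdx levels was not tested.

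**Figure D4:**
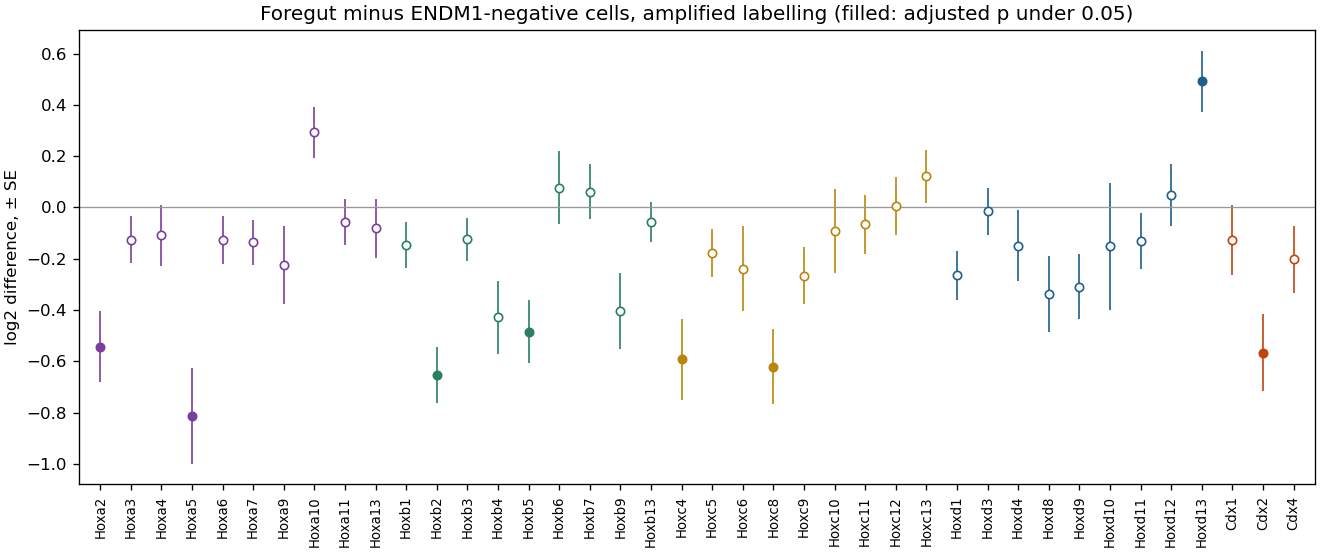
Log2 difference ± SE of foregut to ENDM1-negative cells for the 40 members by cluster and paralogue number; filled symbols passed the test. Of the 8 filled symbols 7 are below 0, with Hoxa5 lowest at -0.81, and Hoxd13 is above at 0.49.

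Differentiation of cultured cells asked whether the members changed between day 0 and day 5. No member rose in any of the 4 comparisons, and 1 did in ES cells when replicate 1 at day 5 was left out. In the unamplified arrays 2 of 40 fell in ES cells, 15 in the clone ST5 and 6 in the clone ST8, and in the amplified arrays 4 fell in ES cells. Of all genes, 18.9% rose and 19.7% fell in ES cells, 23.2% and 24.8% in ST5, 21% and 19.5% in ST8, and 13% and 13.8% in amplified ES cells. The shares of members that fell were 5%, 37.5%, 15% and 10%, and no fall reached 2-fold. The higher share in ST5 was not stable against that of all genes: 25% of members and 25% of all genes fell after a further quantile normalisation, 20% and 21.9% without replicate 1 of ST5 at day 5, and 20% and 22.3% without replicate 2 of ST5 at day 0. Most members were dim, 39 of them under the median level on unamplified arrays and 33 on amplified ones. Of these dim members 5.13% fell in ES cells, 35.9% in ST5, 15.4% in ST8 and 12.1% in amplified ES cells. Of all genes under the median level, 8.37%, 15.6%, 10.6% and 7.55% fell in the same order. The shares of dim genes were not followed under the alternatives. Median differences of the members were -0.04, -0.19, -0.07 and -0.12. Hoxd13, Hoxc13, Hoxc12 and Hoxa13, taken up next, had low levels. Their group means stood between percentile 16.7 and 34.1 of all genes in the day 0 and day 5 groups. With no detection call in the deposited values, whether these genes were above background is not known.

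Hoxd13 fell in all 3 unamplified lines. In ES cells it read 4.74, 4.91 and 5.17 at day 0 and 4.38, 4.11 and 4.24 at day 5, in ST5 5.06, 4.95 and 4.86 then 3.93, 4.30 and 4.27, and in ST8 4.89, 4.87 and 4.77 then 4.15, 4.44 and 4.01. Every day 5 array was below every day 0 array of its line. The falls were -0.70 ± 0.13 in ES cells (adjusted p = 0.000327, limma), -0.79 ± 0.13 in ST5 (adjusted p = 6.32e-05) and -0.64 ± 0.13 in ST8 (adjusted p = 0.000626). On amplified arrays, where Hoxd13 read 4.54, 4.64 and 4.52 at day 0 and 4.54, 4.26 and 4.36 at day 5, it differed by -0.18 and did not pass (adjusted p = 0.319).

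Hoxc13, the last gene of cluster C, known for hair and nails, fell in the 3 unamplified lines and on the amplified ES arrays. It read 4.43, 4.53 and 4.51 at day 0 and 4.15, 4.10 and 4.21 at day 5 in ES cells, 4.45, 4.41 and 4.69 then 4.09, 3.94 and 3.92 in ST5, and 4.29, 4.30 and 4.29 then 3.94, 4.07 and 4.11 in ST8. Amplified ES cells read 5.30, 5.13 and 4.92, then 4.30, 4.44 and 4.49. No pair of groups overlapped. The falls were -0.34 ± 0.08 (adjusted p = 0.00191, limma), -0.54 ± 0.08 (adjusted p = 1.78e-05), -0.25 (adjusted p = 0.0145) and, amplified, -0.70 ± 0.10 (adjusted p = 0.000188). The ST8 call was lost without replicate 1 of ST8 at day 5 (adjusted p = 0.0705).

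Hoxc12, the neighbour of Hoxc13 and a gene of the same posterior group, fell in amplified ES cells from 5.25, 4.89 and 5.16 to 4.18, 4.28 and 4.43, by -0.80 ± 0.11 (adjusted p = 0.000156, limma). The 2 groups did not overlap. In ST8 it went from 4.40, 4.42 and 4.37 to 3.92, 4.19 and 4.22, by -0.29 ± 0.10 (adjusted p = 0.0225), a call lost without replicate 1 of ST8 at day 5 (adjusted p = 0.129) or without replicate 1 or 2 at day 0 (0.0543 and 0.0645). In ST5 it fell by 0.37 (adjusted p = 0.00371) and in unamplified ES cells it differed by -0.10 (adjusted p = 0.448).

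Hoxa13, a gene of the hindgut end and the limb, fell in amplified ES cells from 4.69, 4.49 and 4.90 to 4.31, 4.34 and 4.14, with no overlap. The difference was -0.43 ± 0.11 (adjusted p = 0.012, limma), lost without replicate 3 at day 5 (0.0526) or at day 0 (0.0596). Hoxa10 fell there by 0.37 (adjusted p = 0.0139), lost without replicate 1 at day 5 (0.0563) or replicate 3 at day 0 (0.0673). Without replicate 3 at day 0 the count of falls in amplified ES cells went from 4 to 2, or 5% of members, against 11.9% of all genes.

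Cdx1 fell in ST5 from 6.82, 6.94 and 6.89 to 6.57, 6.44 and 6.25, by -0.46 ± 0.09 (adjusted p = 0.000636, limma). No array of the 2 days overlapped. In ES cells Cdx1 read 6.72, 6.85 and 6.62 at day 0 and 6.51, 6.62 and 6.76 at day 5, with overlap, and in ST8 6.83, 6.63 and 6.88 then 6.46, 6.61 and 6.62, without. Neither passed, at -0.10 (adjusted p = 0.454) and -0.22 (adjusted p = 0.0813), and amplified ES cells, at 6.15, 6.28 and 6.08 then 5.99, 5.98 and 6.01, differed by -0.18 (adjusted p = 0.405).

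Cdx2 did not pass in any line. It read 5.05, 5.29 and 5.05 then 4.89, 5.25 and 5.24 in ES cells, 5.40, 5.42 and 5.14 then 4.75, 4.99 and 5.25 in ST5, and 5.43, 5.10 and 5.15 then 5.15, 5.08 and 5.08 in ST8. The days overlapped in each line, and the nearest to a call was ST5 at -0.33 (adjusted p = 0.0509, limma). Cdx4 read 2.63, 3.0 and 2.97 then 2.43, 2.76 and 2.77 in ES cells, 2.68, 2.68 and 2.74 then 2.45, 2.56 and 2.65 in ST5, and 2.73, 2.61 and 2.81 then 2.85, 2.40 and 2.74 in ST8. Its differences were -0.22, -0.15 and -0.06, with overlap in ES cells and ST8, and -0.20 in amplified ES cells, none of which passed.

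The other members that fell in ST5 were Hoxa11, Hoxa13, Hoxb1, Hoxb6, Hoxb7, Hoxb9, Hoxc4, Hoxc6, Hoxc9, Hoxd9 and Hoxd11, with differences from -0.41 for Hoxb6 to -0.22 for Hoxd9. Without replicate 1 of ST5 at day 5, or without replicate 2 of ST5 at day 0, the count of falls went from 15 to 8. In ST8, Hoxd10 went from 5.03, 5.15 and 5.14 to 4.72, 4.95 and 4.73, a fall of -0.31 ± 0.09 without overlap (adjusted p = 0.00978, limma), a call lost with all 30 arrays in 1 fit (adjusted p = 0.218). The remaining falls in ST8 were Hoxa11 and Hoxd9, at -0.20 and -0.24. Hoxa11 was lost without replicate 3 of ST8 at day 5 (adjusted p = 0.132) or replicate 1 or 3 at day 0 (0.0612 and 0.122), and Hoxd9 without replicate 2 or 3 at day 5 (0.109 and 0.0631) or replicate 1 at day 0 (0.168). Members that did not pass ranged from -0.23 to 0.30 in ES cells, from -0.33 to 0.05 in ST5 and from -0.23 to 0.13 in ST8.

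Fibroblast markers fell over the same days, in 14 of 18 genes in ES cells, 15 in ST5, 15 in ST8 and 13 in amplified ES cells. The array means of that list went from 7.21 to 7.46 at day 0 to 5.69 to 6.08 at day 5 in ES cells, and from 6.61 to 6.78 to 5.57 to 5.76 on the amplified arrays. The part of such cells in the falls of Hox genes was not tested. The sort gate also differed between day 0 and day 5.

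**Figure D5:**
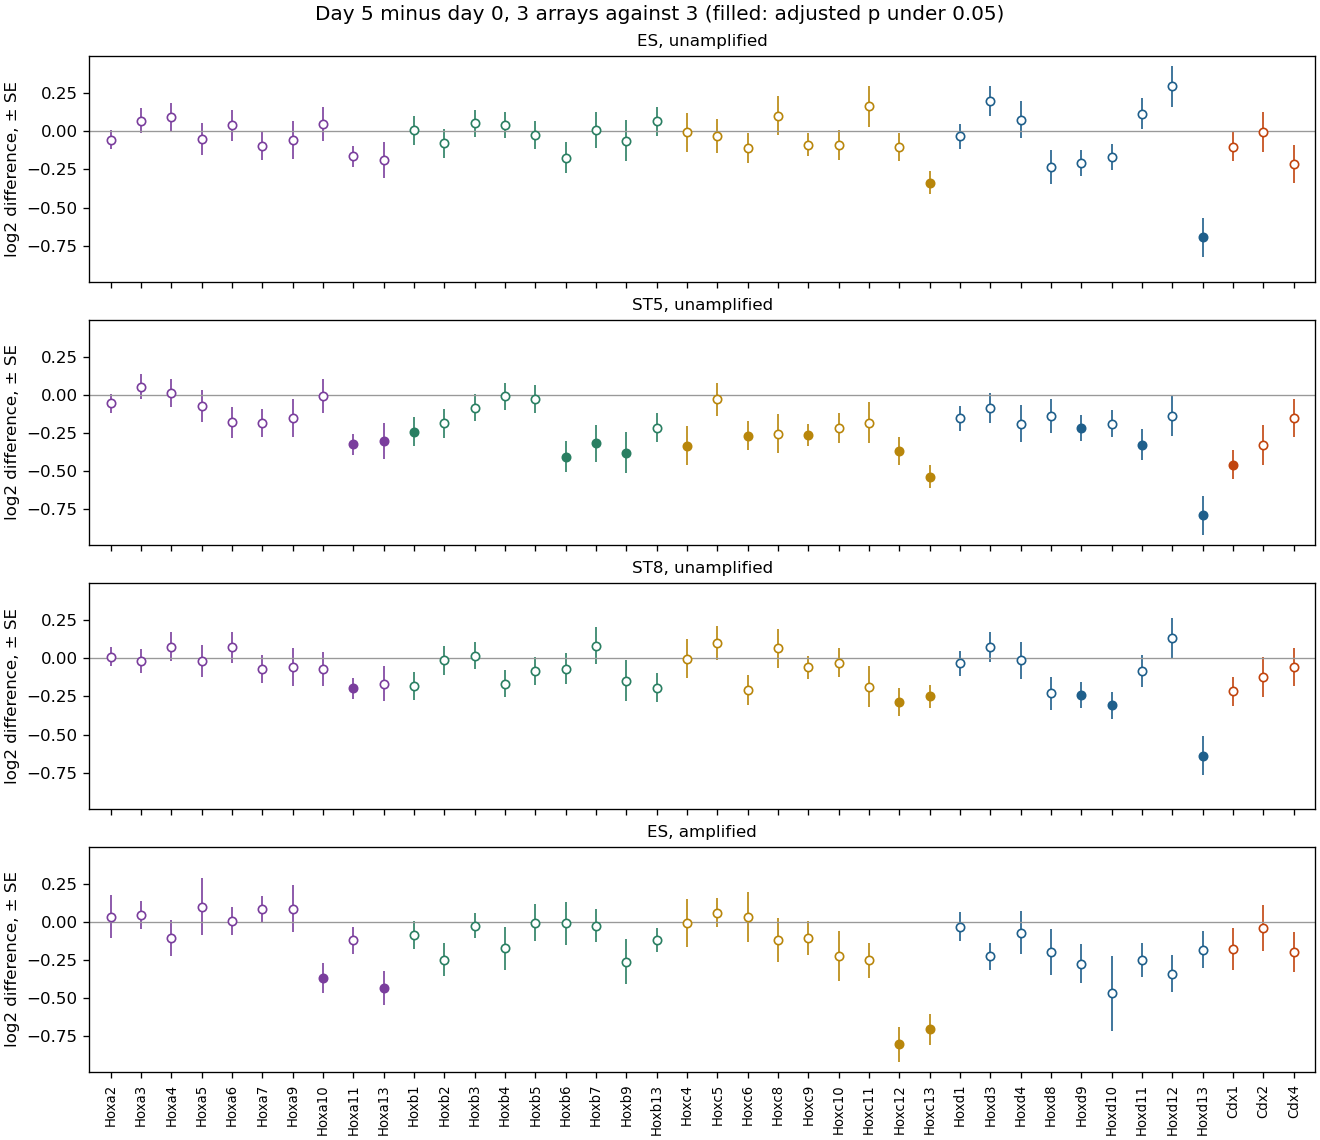
Log2 difference ± SE of day 5 to day 0 for the 40 members in ES cells, ST5, ST8 and amplified ES cells, a panel each; filled symbols passed the test. All filled symbols are below 0, with 2, 15, 6 and 4 of them, and Hoxd13 and Hoxc13 recur.

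Between the lines, 0 of 40 members differed between the mean of both iPS clones and ES cells at day 0, where 4.87% of all genes were called, and 0 had an unadjusted p under 0.05 in limma, which 16.4% of all genes had. At day 5, 2 members were lower in iPS cells and 0 higher, against 4.29% and 4.31% of all genes, and 17 had an unadjusted p under 0.05, against 28% of all genes. Hoxc4, an anterior gene of cluster C, read 3.46, 3.20 and 3.63 in ES cells at day 5, 2.79, 3.09 and 3.09 in ST5 and 3.15, 2.98 and 3.26 in ST8. ST8 overlapped ES cells, and the difference was -0.37 ± 0.11 (adjusted p = 0.0497, limma). Hoxb13, a posterior gene of cluster B, read 4.37, 4.43 and 4.13 in ES cells, 3.88, 4.08 and 4.08 in ST5 and 3.99, 4.01 and 4.04 in ST8, below every ES array, with a difference of -0.30 ± 0.08 (adjusted p = 0.0372). The count of 2 became 0 without replicate 1 of ST5, replicate 1 of ST8 or replicate 2 of ES cells, all at day 5. It became 1 without replicate 2 of ST5 or replicate 3 of ES cells, and 6 without replicate 1 of ES cells. Calls over all genes moved as well, from 1714 to 947, 1741 and 322, to 1068 and 233, and to 4461 in the same order. Cdx1, Cdx2 and Cdx4 did not pass at either day.

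Between the clones, 0 members differed at day 0, where 0.0652% of all genes were called and 4 members had an unadjusted p under 0.05 in limma, against 7.89% of all genes. At day 5 Hoxd10, the neighbour of Hoxd11, was lower in ST8, where 6.3% of all genes were lower and 8.29% higher. It read 4.94, 5.08 and 5.27 in ST5 and 4.72, 4.95 and 4.73 in ST8, which overlapped, and differed by -0.30 ± 0.09 (adjusted p = 0.034). The call was lost without replicate 1 or 3 of ST8 or replicate 2 or 3 of ST5 at day 5. The day 5 change differed from that of ES cells for 0 members in ST5 (5.58% of all genes, with 3 members and 24.1% of all genes at an unadjusted p under 0.05) and for 0 in ST8 (0.838%, with 0 members and 10.8%). The larger count of falls in ST5 was not shown to differ from ES cells. Without replicate 3 of ST5 at day 0, or without replicate 1 of ES cells at day 5, 1 member passed in ST5. Calls over all genes were then 831 and 3275, in place of 1112.

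Meis2 and Meis1, homeodomain partners of Hox proteins, were higher in both embryo groups than in ES cells at day 5. Of 8 measured cofactors of the Pbx, Meis and Pknox families, 3 were higher and 2 lower in foregut, against 14.7% and 9.42% of all genes, and 2 were higher and 0 lower in ENDM1-negative cells, against 16.5% and 9.76%. Meis2 averaged 5.70 in ES cells at day 5, 8.95 in foregut and 8.98 in ENDM1-negative cells, with differences of 3.26 ± 0.11 and 3.28 (adjusted p = 3.62e-09 and 3.25e-09, limma). Meis1 averaged 4.92, 7.96 and 7.65, with differences of 3.04 ± 0.18 and 2.73 (adjusted p = 4.12e-07 and 8.31e-07). Between foregut and ENDM1-negative cells Pbx3 differed by -0.82 (adjusted p = 0.00325). Over differentiation 5 cofactors rose and 1 fell in ES cells, 6 and 1 in ST5, 6 and 1 in ST8 and 5 and 0 in amplified ES cells. Of all genes, 18.9% rose and 19.7% fell in ES cells, 23.2% and 24.8% in ST5, 21% and 19.5% in ST8, and 13% and 13.8% in amplified ES cells. Pbx2 was up by 0.99, 1.27, 1.22 and 0.68, and Pknox1 was lower, at -0.75, -0.59 and -0.63 in the 3 unamplified lines.

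The list of signals upstream of Cdx and Hox genes had 18 measured genes, among them Wnt, Fgf and Gdf ligands, Wnt targets and transcription factors. Of these, 6 were higher in foregut than in ES cells at day 5 and 8 in ENDM1-negative cells, with 0 lower. Of all genes, 14.7% were higher and 9.42% lower in foregut, and 16.5% and 9.76% in ENDM1-negative cells. Axin2, a direct Wnt target, was higher by 0.71 in foregut and 1.18 in ENDM1-negative cells (adjusted p = 9.62e-05 and 1.42e-06, limma). Sp5, another Wnt target, was higher by 1.40 and 1.01 (adjusted p = 6.99e-05 and 0.000573). Between foregut and ENDM1-negative cells Axin2 differed by -0.47 (adjusted p = 0.00426). From day 0 to day 5, 5 of the 18 rose and 6 fell in ES cells, 2 and 11 in ST5, 1 and 8 in ST8 and 1 and 5 in amplified ES cells. The shares of all genes that rose and fell were 18.9% and 19.7%, 23.2% and 24.8%, 21% and 19.5%, and 13% and 13.8%. The ligand gene Wnt5a was up by 2.47 for ST5 (adjusted p = 0.000257, limma). Its rise of 1.29 for unamplified ES cells (adjusted p = 0.0352) lost the call without replicate 1 at day 5 (0.192) or without any single day 0 array. On amplified ES arrays it rose by 0.80, a call lost without replicate 2 at day 0 (adjusted p = 0.063). For ST8 the 1 rise was Gdf11, by 0.58. Fgf4 and Fgf17 led the falls, at -2.41 and -2.06 in ES cells, -2.48 and -2.49 in ST5 and -2.21 and -2.28 in ST8.

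Retinoic acid genes moved in both directions. Of 16, 5 were higher and 1 lower in foregut than in ES cells at day 5, against 14.7% and 9.42% of all genes. In ENDM1-negative cells 6 were higher and 1 lower, against 16.5% and 9.76%. The binding proteins Crabp1 and Crabp2 were higher by 1.95 and 1.74 in foregut and by 3.76 and 2.53 in ENDM1-negative cells. Crabp1 had fallen over differentiation, at -1.66 in ES cells, -1.98 in ST5, -2.07 in ST8 and -2.27 in amplified ES cells. Amplified ES cells at day 0 averaged 9.76 for Crabp1, beside 9.44 in foregut and 11.25 in ENDM1-negative cells. Cyp26a1, which degrades retinoic acid, was lower, at -1.57 and -1.70. It had risen from day 0 to day 5 by 4.76 in ES cells, 3.03 in ST5, 2.19 in ST8 and 3.19 in amplified ES cells. The receptor gene Rarb, itself a retinoic acid target, rose by 3.36, 4.35, 3.47 and 2.27 in the same order, and was higher in foregut than in ENDM1-negative cells by 1.55 ± 0.24 (adjusted p = 0.00196, limma). Crabp1 differed there by -1.81 ± 0.24 (adjusted p = 0.000669).

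Egr2, a regulator of Hox genes in the hindbrain, was higher by 1.46 in foregut and 1.62 in ENDM1-negative cells than in ES cells at day 5 (adjusted p = 1.56e-05 and 5.54e-06, limma), and fell from day 0 to day 5, with differences of -0.40, -0.55 and -0.46 in the ES, ST5 and ST8 cells. The fall in unamplified ES cells was lost without replicate 2 of those cells at day 5. In amplified ES cells Egr2 changed by -0.99, from a mean of 7.86 to 6.86 (adjusted p = 0.000153, limma), beside 8.32 in foregut and 8.48 in ENDM1-negative cells. Of 19 neighbours and noncoding genes of the clusters, 6 were higher and 1 lower in foregut than in ES cells at day 5, against 14.7% and 9.42% of all genes. In ENDM1-negative cells 5 were higher and 1 lower, against 16.5% and 9.76%. Skap2, beside cluster A, was higher by 0.81 and 1.07 and changed over differentiation by -1.35, -1.72 and -1.54 in the ES, ST5 and ST8 cells. Hoxd3os1, a noncoding gene of cluster D on the strand opposite to Hoxd3, was higher by 0.65 and 1.09, and whether the probes of such pairs share signal was not tested. Of 22 chromatin regulators, 7 were higher and 3 lower in foregut and 7 and 1 in ENDM1-negative cells, beside the same shares of all genes. Gmnn, a DNA replication and chromatin factor, was up by 0.53 and 0.84, and Ezh1 of Polycomb complex PRC2 was lower, at -0.49 and -0.66. Of the 3 ParaHox genes measured, 0 passed in the 3 embryo comparisons (limma), and Pdx1, of the pancreas and duodenum, rose by 1.05 in ST5.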

How the data were processed

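Expression was measured on 30 Affymetrix Mouse Gene 1.0 ST arrays. The authors deposited log2 levels of probe sets made by RMA, according to the submitters' processing notes. Its version and whether amplified and unamplified arrays were normalised together are not given in the sources used here. Levels were therefore compared within a labelling. Arrays have no read depth, and their number sets the precision.

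Of 35556 probe sets, 23410 were listed in the platform annotation, 21789 with 1 gene and 1621 with several. Probe sets with several genes or not listed (12146) were left out, and 999 genes with several probe sets kept that of highest mean across the 30 arrays, for 19938 genes in all. Names follow that annotation, and the 40 members all matched the RefSeq gene table.

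Models with a mean per group were fitted with limma 3.58.1 in R 4.3.3, with the package data.table (version 1.17.8), to the unamplified arrays (18, in 6 groups, with 12 degrees of freedom left) and to the amplified ones (12, in 4 groups, with 8 left). Moderated two-sided tests were adjusted by Benjamini-Hochberg over all 19938 genes and called under 0.05. No gene was filtered by level. The scripts were tested on simulated data, and tables and figures were made in Python 3.11.15 with pandas 2.3.3 and matplotlib 3.10.9.

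Samples were grouped by their labels. The members and the gene lists were chosen with earlier results of these data known. Every array value was to be given for the Cdx genes and, per comparison, for up to 8 called members with a difference of at least 1 or else the 3 largest called. Of each list the 2 largest called rises and falls were eligible to be named. Other members are named to account for all 40 or because they were singled out after their values were seen. Alternatives covered the groups in the fit, the scaling, a filter on dim genes, stricter thresholds, the replicate number as a block and leaving out each array. They also covered the probe set used for a gene and an intensity trend with a robust spread.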

Additional observations from a re-analysis of the deposited data

Results flagged for a closer look

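The probe set that lists Hoxb8 together with Hoxb7 stood outside the gene tests and still carried a difference. It read 5.45, 5.11 and 5.02 in amplified ES cells at day 5, 5.99, 5.77 and 6.07 in foregut and 6.58, 6.21 and 6.76 in ENDM1-negative cells. The means were 0.75 higher in foregut and 1.33 higher in ENDM1-negative cells than in those ES cells, with no overlap between the 3 groups, and neither difference was tested. Undifferentiated ES cells of the same labelling read 5.33, 5.41 and 5.02. Which of the 2 genes gave the signal cannot be told apart.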

How the results depend on the processing

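With 3 arrays a group, small differences rest on few degrees of freedom. No member called at 1 log2 unit or more between embryo and ES cells at day 5 lost its call under any alternative in which it was tested. Among the counts of members, 189 of 239 values stayed within 1.5 times, and 50 did not. The 189 include counts of 0 that stayed at 0. They also include settings on the choice of probe set, which could not change the levels of members, each having 1 probe set.

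With a further requirement of 2-fold, the counts were 0 for foregut against ENDM1-negative cells, 5 for foregut and 10 for ENDM1-negative cells against ES cells at day 5, and 0 for every day 5 change and for iPS against ES cells and ST8 against ST5 at day 5. With dim genes left out, 7 members were tested on the amplified arrays and 1 on the others. The counts were then 0 for foregut against ENDM1-negative cells, 5 and 7 against ES cells at day 5, 1 for the change in ST5, and 0 for the changes in ES cells, amplified ES cells and ST8 and for both line comparisons at day 5. At an adjusted p under 0.01 they were 1 for foregut against ENDM1-negative cells, 2 for amplified ES cells, 7 for ST5, 2 for ST8 and 0 for both line comparisons at day 5. Shifting arrays to a common median gave 6 falls in ES cells, 12 in ST8 and 0 calls between iPS and ES cells at day 5, and quantile normalisation gave 0 there. With only the groups of a contrast in the fit, ST8 had 3 and both line comparisons at day 5 had 0. With all 30 arrays in 1 fit, ST8 against ST5 at day 5 had 0. The cause of these changes was not tested, except that fewer genes, thresholds or arrays enter where the setting says so.

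Leaving out each array gave 1 to 8 members for foregut against ENDM1-negative cells, 20 to 24 and 24 to 27 for foregut and ENDM1-negative cells against ES cells at day 5, 2 to 6 for amplified ES cells, 2 to 3 for ES cells, 8 to 15 for ST5, 4 to 6 for ST8, 0 to 6 for iPS against ES cells at day 5, 0 to 1 for ST8 against ST5 at day 5 and 0 to 1 for the ST5 response against that of ES cells. Both day 0 line comparisons and the ST8 response stayed at 0. Over all genes the same fits called 985 to 1174, 3381 to 4928 and 4208 to 5108 in the 3 embryo comparisons. They called 233 to 4461 for iPS against ES cells and 675 to 5951 for ST8 against ST5, both at day 5.

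The common median moved the share of higher genes among all calls, from 45.6% to 35.6% for foregut against ENDM1-negative cells, 61.0% to 45.1% for foregut against ES cells at day 5, 49.0% to 38.5% for ES cells, 51.7% to 40.6% for ST8, 50.1% to 74.9% for iPS against ES cells at day 5, 56.8% to 36.0% for ST8 against ST5 at day 5 and 59.1% to 76.7% for the ST5 response. Members higher in foregut were then 23, and 26 in ENDM1-negative cells.

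Over all 40 members, another scaling changed the sign of 1 in foregut against ENDM1-negative cells, up to 3 in foregut and 0 in ENDM1-negative cells against ES cells at day 5, and up to 13 in comparisons of cultured cells (ST8 against ST5 at day 5, and the ST5 response against the ES response). Among the genes followed under every alternative, those that changed sign were Cdx genes below the threshold. Leaving out single arrays, Cdx1 ranged from -0.24 to 0.046 for foregut against ENDM1-negative cells, above 0 without ENDM1-negative replicate 1. Cdx2 ranged from -0.14 to 0.061 for amplified ES cells, from -0.068 to 0.11 for ES cells and from -0.016 to 0.23 for ST8 against ST5 at day 5. Cdx4 ranged from -0.15 to 0.074 for the ST8 change, from -0.033 to 0.070 for ST8 against ST5 at day 0 and from -0.15 to 0.022 for iPS against ES cells at day 5. For iPS against ES cells at day 5, Cdx2 was 0.027 and Cdx4 0.0014 after quantile normalisation, and Cdx4 was 0.014 with a common median.

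Samples with the same replicate number and labelling correlated between -0.12 and 0.18 in their deviations, which does not pair the groups of these comparisons. Between the labellings, same-numbered ES arrays correlated at 0.65, 0.45 and 0.29 at day 5 and between -0.036 and 0.12 at day 0. With that number as a block the count for ENDM1-negative cells against ES cells at day 5 was 27 in place of 28, and the other counts were as without it.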
